A study of Mus musculus with 16 samples.

Results

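The 8 genes described here encode interferon regulatory factors (IRFs): Irf1, Irf2, Irf3, Irf4, Irf5, Irf7, Irf8 and Irf9. They were taken from whole-liver array data by the gene symbol that the platform annotation gives to each probe set. Where the annotation named more than 1 probe set for a gene, the brightest on average over the 16 arrays stood for it. All 8 genes were on the array, and all 8 were among the 15908 genes tested.

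Livers of male C57Bl/6 mice were compared in 4 groups of 4 arrays. Wild-type (WT) C57Bl6/J mice were either untreated or given 1 mg/kg lipopolysaccharide (LPS), the endotoxin of Gram-negative bacteria. The other 2 groups, untreated and given 1 mg/kg LPS, were S534A mice, which are homozygous for a germline knock-in that turns the codon of a phosphorylated serine of p65 from TCC to GCA, an alanine codon. Rela encodes p65, an activating subunit of NF-kB. The line came from targeted PTL1 embryonic stem cells. Its Neo cassette was removed with FLPe, and it was backcrossed to C57Bl6/J, so every cell of the animal carries the change. The design asks how LPS changed liver RNA in each genotype, and whether the substitution altered the untreated or the LPS-treated state. The labels give neither the ages nor the time between LPS and collection, and no group is labelled as given vehicle. The series text attaches the LPS dose to the untreated S534A group as well. The sample titles and source names call it untreated and were followed. Nothing in the labels states that each sample is its own animal, and p-values may therefore reflect technical spread only.

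IRFs are transcription factors that share a DNA-binding domain and recognise interferon-stimulated response elements (ISREs) and related sequences. Irf3, Irf7 and Irf5 lie latent in the cytoplasm until kinases downstream of Toll-like receptors and of RNA and DNA sensors phosphorylate them, after which they switch on type I interferon and cytokine genes. Irf9 is part of ISGF3, the complex that carries the interferon signal to ISREs. Irf1 activates and Irf2 mostly represses an overlapping set of such genes, while Irf8 and Irf4 act chiefly in myeloid and lymphoid cells. Arrays measure the RNA of these genes and not the phosphorylation that activates the proteins.

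Promoters of 4 members are shown because these genes rose after LPS and differ in the motifs their promoters hold. Each window, from RefSeq on GRCm38.p6, runs from 250 bases before to 50 after an annotated start, 5′ to 3′ on the strand of the gene. Capitals mark every match, on either strand, to an ISRE (GAAA, any 2 bases, GAAA), a gamma-interferon activated site (GAS, TTCNNNGAA, the motif bound by STAT dimers) or the NF-kB consensus. The Irf1 window is chr11:53769764-53770063, plus strand. The Irf2 window is chr8:46739495-46739794, plus strand. The Irf8 window is chr8:120736108-120736407, plus strand. The Irf7 window is chr7:141266375-141266674, minus strand.
Irf1: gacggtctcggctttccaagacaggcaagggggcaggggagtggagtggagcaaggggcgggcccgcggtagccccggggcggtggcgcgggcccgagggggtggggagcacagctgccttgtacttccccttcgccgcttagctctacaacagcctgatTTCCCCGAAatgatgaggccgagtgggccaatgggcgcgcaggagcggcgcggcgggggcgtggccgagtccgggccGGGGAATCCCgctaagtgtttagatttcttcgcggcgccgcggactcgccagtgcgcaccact
Irf2: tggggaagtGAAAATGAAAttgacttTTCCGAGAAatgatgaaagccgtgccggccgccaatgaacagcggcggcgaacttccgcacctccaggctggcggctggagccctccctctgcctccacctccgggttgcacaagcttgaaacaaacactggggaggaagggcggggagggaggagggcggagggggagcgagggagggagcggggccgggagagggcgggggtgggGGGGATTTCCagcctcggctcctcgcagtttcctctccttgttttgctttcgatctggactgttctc
Irf8: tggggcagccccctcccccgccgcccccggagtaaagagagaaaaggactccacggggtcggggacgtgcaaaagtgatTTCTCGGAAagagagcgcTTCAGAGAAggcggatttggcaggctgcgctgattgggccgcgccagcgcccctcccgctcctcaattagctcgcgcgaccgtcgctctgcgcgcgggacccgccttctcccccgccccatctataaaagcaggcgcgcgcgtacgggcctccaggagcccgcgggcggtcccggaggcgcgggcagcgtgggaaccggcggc
Irf7: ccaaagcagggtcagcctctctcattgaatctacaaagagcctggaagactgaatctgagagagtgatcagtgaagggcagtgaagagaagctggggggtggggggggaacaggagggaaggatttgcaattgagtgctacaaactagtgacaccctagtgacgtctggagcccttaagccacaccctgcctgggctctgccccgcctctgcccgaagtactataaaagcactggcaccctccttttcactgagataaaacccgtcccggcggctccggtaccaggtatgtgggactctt

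The Irf1 window held a GAS match, TTCCCCGAA, at bases -90 to -82 from the start and an NF-kB match, GGGGAATCCC, at -13 to -4. The Irf2 window held all 3 motifs: the ISRE match GAAAATGAAA at -241 to -232, the GAS match TTCCGAGAA at -224 to -216 and the NF-kB match GGGGATTTCC at -17 to -8. The Irf8 window held GAS matches, TTCTCGGAA at -171 to -163 and TTCAGAGAA at -153 to -145. No motif overlapped another in these windows. None of the 3 motifs was found in the Irf7 window or in those of Irf3, Irf4, Irf5 and Irf9, which says only that these letters are not in those stretches. Irf1, Irf8 and Irf9 each have another annotated start, and those windows held no match either. Among all 32841 windows of this length, 3.44% held the ISRE, 8.3% the GAS and 4.51% the NF-kB motif. A match is a description of the sequence and not a bound site.

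Array medians lay between 6.25 and 6.42 on the log2 scale. Every LPS array had a higher median (6.37 to 6.42) than every untreated array (6.25 to 6.35). Array scale and LPS can therefore not be told apart, and small LPS changes, such as those of Irf4 and Irf5, depended on the scaling. Hepatocyte markers such as Alb and Hnf4a stood at or above the 97.8th percentile of every array, so the defining markers of the labelled tissue were present. Rela RNA, whose level does not check the codon change, had a mean log2 level of 10.17 ± 0.15 (SD, n = 4) in untreated WT and 11.39 ± 0.07 after LPS, and of 9.98 ± 0.11 and 11.40 ± 0.03 in S534A. Clock genes differed among untreated arrays: a clock score (Dbp, Per1, Per2, Per3 and Tef against Arntl) spanned -1.77 to 3.47 in WT and -2.55 to 3.41 in S534A. WT arrays 1 and 3 (-1.70 and -1.77) and S534A array 3 (-2.55) stood apart in that score. S534A array 4, at 0.96, lay between them and the other untreated arrays, at 3.33 to 3.47. It remained in the fits that left out those 3 arrays.

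In WT liver, LPS raised the RNA of 5 IRF genes and lowered that of 1. Irf7, Irf2, Irf8, Irf1 and Irf9 rose between 2.23-fold and 5.78-fold, Irf3 fell, and Irf5 and Irf4 did not pass the test. The test was limma on all 16 arrays, two-sided, with Benjamini-Hochberg adjustment over the 15908 genes and a threshold of 0.05. In this comparison 14.9% of all genes were called higher and 29.9% lower, 44.9% in all, against 5 and 1 of 8 IRF genes. The median change was 1.19 for the IRF genes and -0.05 for all genes. WT LPS and WT untreated arrays did not overlap for 6 of the 8 genes, as for 38.3% of all genes. The same 5 genes rose and Irf3 fell in S534A liver, where 14.2% of all genes were called higher, 31.2% lower and 45.4% in all. The 6 genes were again those without overlap between S534A LPS and S534A untreated arrays, as were 48.1% of all genes. An exact permutation test gave p = 0.0286 for each of these 6 genes in each genotype, the smallest that 70 arrangements of 4 against 4 arrays allow. The 5 rises kept direction and call under all 30 alternatives, and the fall of Irf3 did so under all but a 1.5-fold minimum.

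**Figure D1:**
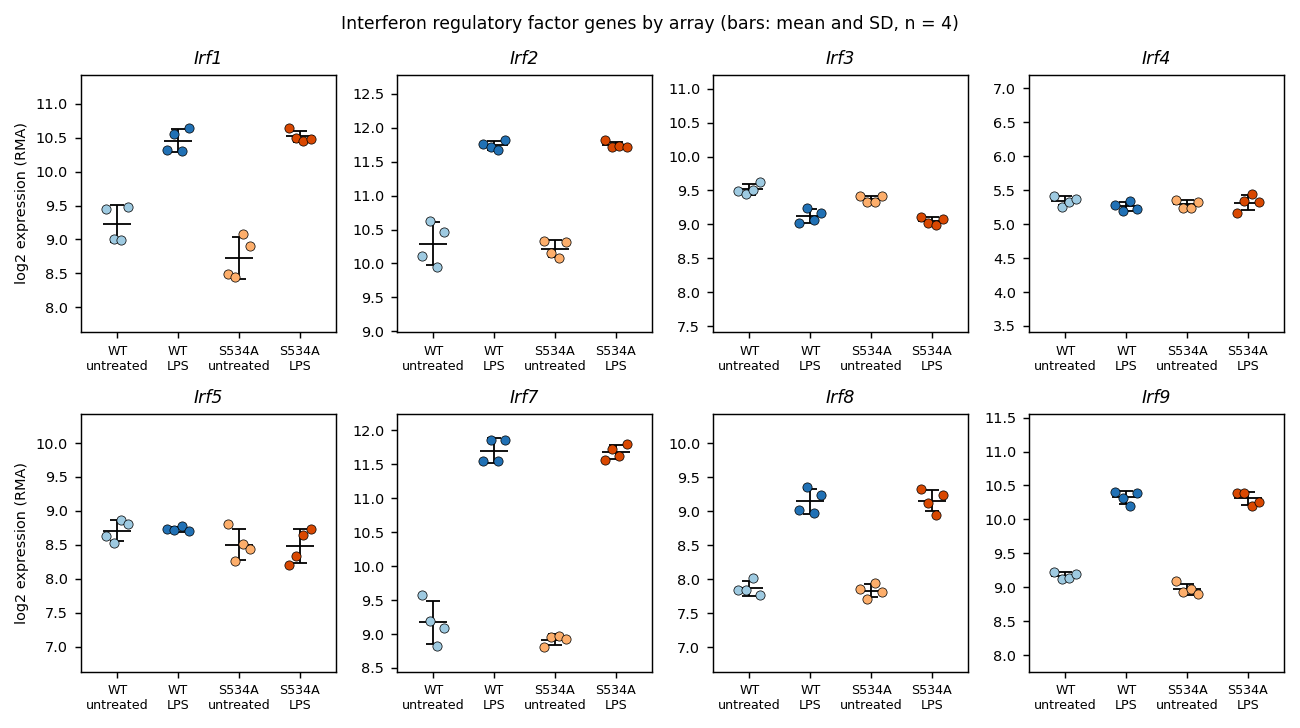
Log2 expression (RMA, vertical axis) of each IRF gene on each of the 16 arrays, by group, with 1 point per array and bars for the mean and SD of 4 arrays. LPS arrays of both genotypes stand above all untreated arrays for Irf1, Irf2, Irf7, Irf8 and Irf9 and below them for Irf3, while Irf4 and Irf5 overlap.

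Among the signal-activated members, Irf7, which drives the interferon-alpha genes once phosphorylated, rose the most of the 8. Untreated WT arrays read 9.58, 9.20, 8.82 and 9.09 on the log2 scale, and WT LPS arrays 11.55, 11.85, 11.55 and 11.86. S534A arrays read 8.81, 8.96, 8.98 and 8.93 untreated and 11.56, 11.72, 11.62 and 11.80 after LPS. Every LPS array was above every untreated array, and the lowest LPS value exceeded the highest untreated value by more than the range of any group. On the log2 scale Irf7 rose by 2.53 ± 0.13 (SE, adjusted p = 6.08e-11), or 5.78-fold, in WT and 2.76 ± 0.13 (adjusted p = 1.88e-11), or 6.77-fold, in S534A.

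Irf3, the constitutively made factor that TBK1 phosphorylates downstream of TRIF, moved the other way. The log2 levels of Irf3 were 9.49, 9.44, 9.51 and 9.63 in untreated WT and 9.03, 9.25, 9.06 and 9.17 after LPS. The S534A levels were 9.41, 9.33, 9.34 and 9.42 untreated and 9.10, 9.02, 8.99 and 9.09 after LPS. All 8 LPS arrays were below all 8 untreated arrays, and the spread within a group was small. Its LPS change was -0.39 ± 0.07 (adjusted p = 0.000108) in WT, a 1.31-fold lower level, and -0.33 ± 0.07 (adjusted p = 0.000561) in S534A, 1.25-fold lower.

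Irf5, which acts downstream of MyD88 to switch on inflammatory cytokines, showed no change that passed the test. Its log2 levels ran from 8.53 to 8.86 in untreated WT and from 8.70 to 8.78 after LPS. In S534A they ran from 8.26 to 8.81 untreated and from 8.20 to 8.73 after LPS. All neighbouring groups overlapped. With LPS it changed by 0.02 (95% interval -0.24 to 0.28, adjusted p = 0.905) in WT and -0.03 (-0.29 to 0.23, adjusted p = 0.883) in S534A.

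Irf9, the DNA-binding subunit of ISGF3, had the tightest groups of the 5 genes that rose, judged by the SE of its change. Its log2 levels were 9.22, 9.13, 9.14 and 9.19 in untreated WT and 10.41, 10.32, 10.19 and 10.39 after LPS. In S534A they were 9.09, 8.93, 8.97 and 8.89 untreated and 10.39, 10.39, 10.20 and 10.25 after LPS. The LPS arrays of the genotypes overlapped, whereas the untreated S534A arrays all lay below the untreated WT arrays. Irf9 rose by 1.15 ± 0.07 (adjusted p = 8.46e-10), or 2.23-fold, in WT and 1.34 ± 0.07 (adjusted p = 1.31e-10), or 2.53-fold, in S534A.

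Irf1, an interferon-gamma and NF-kB responsive activator, spread widely among untreated arrays, with an SD of 0.27 in WT and 0.31 in S534A. Irf1 log2 levels were 9.45, 9.01, 8.99 and 9.48 in untreated WT and 10.33, 10.56, 10.30 and 10.64 after LPS. S534A arrays had 8.49, 8.45, 9.08 and 8.90 untreated and 10.64, 10.49, 10.45 and 10.48 after LPS. The S534A LPS arrays lay almost wholly within the WT LPS range. In the untreated state S534A arrays 1, 2 and 4 lay below every WT array, and S534A array 3 lay within the WT range. The rise was 1.23 ± 0.15 (adjusted p = 2.69e-06), or 2.34-fold, in WT and 1.79 ± 0.15 (adjusted p = 3.21e-08), or 3.45-fold, in S534A.

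Irf2, best known as the antagonist that competes with Irf1 for the same elements, rose alongside it. Irf2 read 10.11, 10.63, 9.95 and 10.47 on the log2 scale in untreated WT and 11.76, 11.72, 11.66 and 11.82 after LPS. The values in S534A were 10.33, 10.16, 10.08 and 10.31 untreated and 11.82, 11.72, 11.73 and 11.71 after LPS. The untreated WT arrays spread over 0.68 log2 units, and the WT LPS arrays over 0.15. Untreated WT arrays 1 and 3, the lower ones, also stood apart in the clock score. So did S534A array 3, at 10.08 the lowest untreated S534A array. A link between Irf2 and the clock score was not tested. The rise in log2 level was 1.45 ± 0.12 (adjusted p = 2.60e-08), or 2.73-fold, in WT and 1.53 ± 0.12 (adjusted p = 1.30e-08), or 2.88-fold, in S534A.

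Irf8, which directs the development of monocytes, macrophages and dendritic cells and is itself a target of interferon-gamma, also rose. Irf8 log2 levels were 7.84, 7.83, 8.02 and 7.76 in untreated WT and 9.02, 9.36, 8.97 and 9.25 after LPS. S534A values were 7.86, 7.71, 7.94 and 7.81 untreated and 9.32, 9.12, 8.95 and 9.24 after LPS. The genotypes overlapped in both states, and LPS and untreated arrays were apart. Its rise was 1.28 ± 0.10 (adjusted p = 1.76e-08), or 2.44-fold, in WT and 1.33 ± 0.10 (adjusted p = 1.14e-08), or 2.51-fold, in S534A. In bulk tissue a change in the number of cells of a type and a change in RNA per cell cannot be told apart.

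Irf4, the factor of plasma cells and of alternatively activated macrophages, read low on these arrays. Its 16 log2 levels ran from 5.17 to 5.44, between the 25th and the 33rd percentile of the array. It exceeded the 30th percentile on 5 arrays, where 4 were needed for testing. The log2 change was -0.09 (95% interval -0.23 to 0.06, adjusted p = 0.347) in WT and 0.02 (-0.12 to 0.17, adjusted p = 0.799) in S534A. Under median centring and a second quantile normalization it was called lower in WT, with log2 changes of -0.19 (adjusted p = 0.0312) and -0.18 (adjusted p = 0.0274).

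Between genotypes after LPS, no IRF gene passed the limma test. The adjusted p was 0.9996 for all 8 genes. None of them had an unadjusted p under 0.05, against 477 of all genes (3%), and 0% of all genes were called. S534A and WT arrays overlapped for all 8 genes, while 2.03% of all genes showed no overlap. The S534A minus WT log2 difference was 0.06 for Irf1 (95% interval -0.25 to 0.37), -0.03 for Irf7 (-0.29 to 0.24) and -0.02 for Irf9 (-0.17 to 0.13). It was -0.26 for Irf5 (-0.52 to 0.01, unadjusted p = 0.0542), the largest of the 8 in size. S534A LPS arrays 1, 2 and 3, at 8.20, 8.34 and 8.64, lay below every WT LPS array, and array 4, at 8.73, lay within the WT LPS range of 8.70 to 8.78. Without S534A LPS array 1 the difference was -0.16, and without array 4 it was -0.34. Intervals that include 0 do not show that the genotypes are alike. They leave room for log2 differences down to -0.17 for Irf9, up to 0.37 for Irf1 and down to -0.52 for Irf5.

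In untreated liver all 8 IRF genes had a lower mean in S534A than in WT, and none passed the limma test. In this comparison 0.0126% of all genes were called, and 49.2% of all genes had a higher mean in S534A. The median difference was -0.17 for the IRF genes and 0.00 for all genes. At an unadjusted p under 0.05 there were 3 of 8 IRF genes, Irf1, Irf9 and Irf3, and 8.88% of all genes. Arrays did not overlap between genotypes for Irf9 and Irf3, 2 of 8, and for 5.69% of all genes. The members share arrays, so their common sign is not 8 separate observations.

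Irf1 had the largest of these differences, -0.50 ± 0.15 (95% interval -0.81 to -0.19), with an adjusted limma p of 0.261. Its unadjusted p of 0.00321 ranked 195th of 15908 genes. The exact permutation p was 0.0857, since S534A array 3 lay above 2 WT arrays. For Irf9 the difference was -0.20 ± 0.07 (-0.35 to -0.05, adjusted p = 0.393) and for Irf3 -0.14 ± 0.07 (-0.28 to -0.0018, adjusted p = 0.558), each with an exact permutation p of 0.0286. Irf7 differed by -0.25 ± 0.13 (adjusted p = 0.584), and by -0.12 without WT array 1, the highest of the untreated arrays. Irf5 differed by -0.21 (-0.12 without S534A array 2), Irf2 by -0.07, Irf4 by -0.05 and Irf8 by -0.03, each with an interval that includes 0. Without the 3 arrays that stood apart in clock genes, the Irf1 difference was -0.63 (adjusted p = 0.410), the Irf2 difference -0.28 and the Irf9 difference -0.19. That fit kept only untreated WT arrays 2 and 4 and untreated S534A arrays 1, 2 and 4. The lowest adjusted p under any alternative was 0.102 for Irf1 and 0.0621 for Irf9, both with array quality weights.

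The interaction, which subtracts the WT response to LPS from the S534A response, had 0 calls among IRF genes and among all genes, 0% of those tested. It was positive for 7 of the 8 genes. Its untreated terms are the differences just given, so it is not separate support for them. Irf1 had the largest value, 0.56 ± 0.21 (95% interval 0.13 to 1.00, adjusted p = 0.951 by limma). Its unadjusted p of 0.0144 made it the only IRF gene with an unadjusted p under 0.05, against 4.82% of all genes (766). For Irf7 it was 0.23 (-0.15 to 0.61), which became 0.09 without untreated WT array 1 and 0.34 without untreated WT array 3, and for Irf9 it was 0.18 (-0.03 to 0.39).

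**Figure D2:**
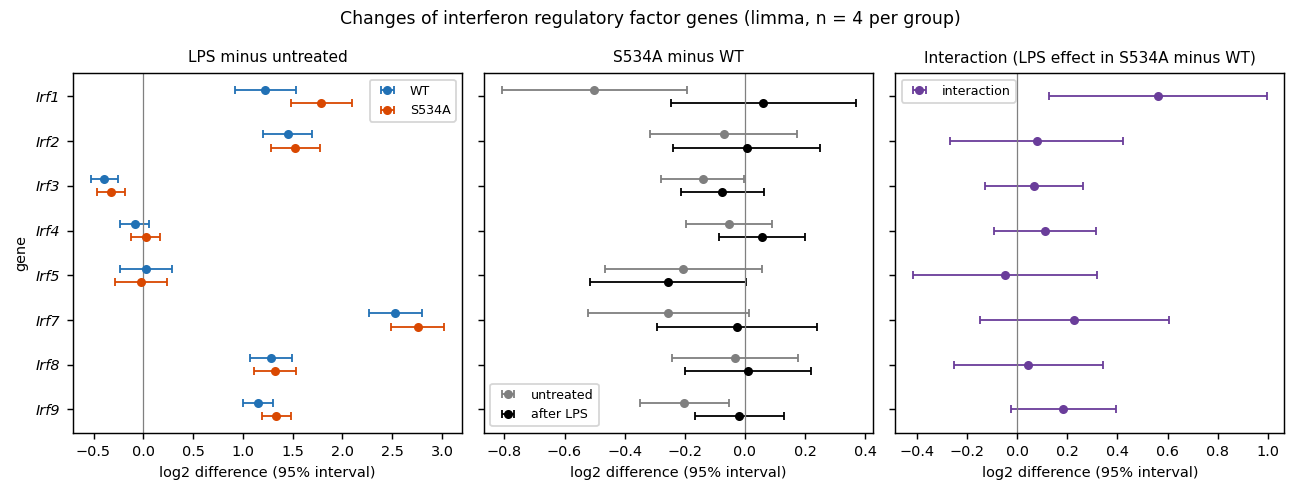
Log2 differences (horizontal axis) with 95% intervals for each IRF gene, for LPS against untreated in each genotype and for S534A against WT in each state (limma, 4 arrays per group). The LPS changes of 6 genes lie clear of 0 in both genotypes, whereas the genotype differences after LPS all have intervals that include 0 and the untreated differences all have points on the negative side.

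A further probe set named Irf1, annotated with 1 transcript accession against 8 for the probe set used above, gave other values. Its log2 levels were 6.77, 6.41, 6.53 and 6.96 in untreated WT and 7.17, 7.25, 7.58 and 7.59 after LPS. In S534A they were 6.42, 6.62, 6.64 and 6.60 untreated and 7.15, 7.26, 7.22 and 7.30 after LPS. It rose after LPS by 0.73 ± 0.12 in WT (adjusted p = 7.40e-05) and by 0.66 ± 0.12 in S534A (adjusted p = 0.00018). Its untreated genotype difference was -0.10 ± 0.12 (adjusted p = 0.913) and its interaction -0.07. The difference between the probe sets was not tested, and which part of the gene this probe set covers was not checked. With the mean of both probe sets the untreated difference was -0.30 (adjusted p = 0.471).

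**Figure D3:**
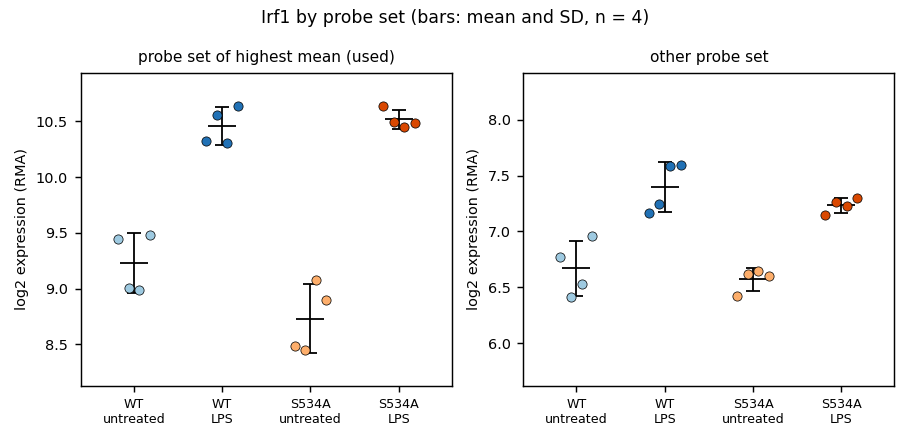
Log2 expression (RMA, vertical axis) of both Irf1 probe sets on the 16 arrays, by group, with bars for the mean and SD of 4 arrays. Both rise after LPS in both genotypes, and the untreated groups are further apart on the probe set of higher mean, 9.23 against 8.73.

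The 4 groups followed a common order for several members. For Irf1, Irf2 and Irf8 the means ran from untreated S534A through untreated WT and WT LPS to S534A LPS, and only the step from untreated to LPS was free of overlap. For Irf7 and Irf9 the order was the same except that WT LPS was highest. In Irf9 the untreated genotypes were also without overlap. For Irf3 the order ran from S534A LPS through WT LPS and untreated S534A to untreated WT, and only the LPS groups overlapped. All neighbouring groups overlapped for Irf4 and Irf5.

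The genes around the IRFs in their pathway were read from 5 lists in the same limma fit. Their counts stand beside 14.9% of all genes called higher and 29.9% lower in WT, and 14.2% and 31.2% in S534A. Of 20 tested sensors, adaptors and kinases that feed the IRFs, 15 rose and 1 fell in WT, and 15 rose and 2 fell in S534A. Tlr3, the sensor of double-stranded RNA, rose by 3.17 on the log2 scale in WT and 3.29 in S534A. Ifih1, which senses cytosolic RNA, rose by 2.64 and 2.60, the adaptor Myd88 by 2.19 and 2.17, and Tbk1, the kinase of Irf3 and Irf7, by 2.29 and 2.19. Mavs, the mitochondrial adaptor of the RNA sensors, fell by 1.52 in WT and 1.57 in S534A. Irak1, a kinase downstream of MyD88, was the other gene that fell in S534A, by 0.19. Over 20 other settings the number that fell was 1 or 2 in each genotype. In WT it was 2 with median centring, with a second quantile normalization, without the 3 arrays that stood apart in clock genes, without untreated WT array 1 and without WT LPS array 2. In S534A it was 1 without those 3 arrays, and also without any single S534A array other than LPS array 1. The list's median change was 0.76 in WT and 0.59 in S534A. Mavs and Irak1 were named after their values were seen, as were Ifngr1, Tyk2 and Irf2bp1 below.

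Of 16 tested interferon ligands, receptors, JAK kinases, STATs and their inhibitors, 8 rose and 2 fell in WT, and 9 rose and 3 fell in S534A. Usp18, which blocks the type I interferon receptor, rose by 4.08 in WT and 4.15 in S534A. Socs1, an inhibitor of JAK kinases, rose by 2.14 and 2.24, the phosphatase gene Ptpn2 by 2.07 and 1.84, and Stat2, a partner of Irf9, by 1.76 in both. Ifngr1, a chain of the interferon-gamma receptor, fell by 0.34 in WT, and the kinase gene Tyk2 by 0.25. No gene of the list fell in WT without untreated WT array 1, 3 or 4, without WT LPS array 1 or 3 or without the 3 arrays named above, and 1 fell without WT LPS array 4. The median change was 0.36 in WT and 0.35 in S534A. Ifnb1 and Ifna4, the type I interferons that Irf3 and Irf7 switch on, were below the filter on low values, so their RNA was not tested.

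Of 15 tested IRF partners and corepressors, 8 rose and 1 fell in each genotype. Trim21, a ubiquitin ligase that binds IRFs, rose by 2.93 in WT and 2.91 in S534A. Nmi rose by 2.19 and 2.13, its partner Ifi35 by 1.79 and 2.09, and Batf2, which binds DNA together with IRFs, by 1.53 and 1.73. Irf2bp1, a corepressor of Irf2, fell by 0.65 in WT and 0.37 in S534A. The median change was 0.41 in WT and 0.24 in S534A. The number that rose in S534A was 5 with median centring. The number that fell was 2 in WT without the 3 arrays that stood apart in clock genes and 2 in S534A without untreated S534A array 1.

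All 22 tested antiviral genes known to be driven through ISREs rose in both genotypes, with median log2 changes of 3.73 in WT and 3.83 in S534A. Ifit2, an RNA-binding antiviral protein, rose by 6.15 in WT and 6.07 in S534A. The chemokine gene Cxcl10 rose by 5.36 and 5.37, Trim30a by 3.73 and 3.60, and Parp14 by 3.72 and 3.58. Of 22 genes known as targets of Irf1, 19 rose and 0 fell in each genotype, with medians of 1.66 and 1.72. Cd274, which encodes the PD-L1 checkpoint ligand, rose by 4.81 in WT and 4.78 in S534A. The guanylate-binding protein genes Gbp5 and Gbp3 rose by 5.39 and 4.35 in WT and by 5.32 and 4.27 in S534A. Tlr3 and Zbp1 stand in this list and in another of these lists. Between genotypes and in the interaction, 0 genes of the 5 lists passed the threshold. Of all genes, 0% passed it after LPS and in the interaction, and 0.0126% in untreated liver. In untreated liver the median S534A minus WT difference was -0.12 over the antiviral genes and -0.02 over the Irf1 targets. Of the antiviral genes 6 of 22 had a higher mean in S534A, beside 49.2% of all genes. The genes of a list share arrays, so their signs are not 22 separate observations.

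**Figure D4:**
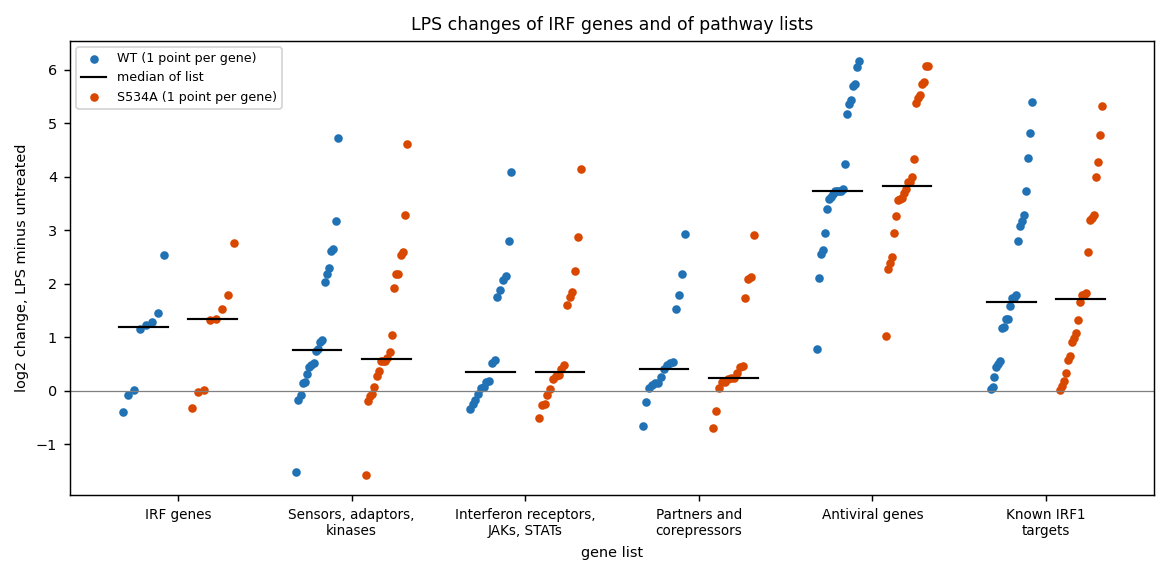
Log2 change after LPS (vertical axis) of each tested gene in the IRF set and in 5 pathway lists, with 1 point per gene, WT and S534A side by side and a bar at the list's median. All antiviral genes lie above 0 in both genotypes, with medians of 3.73 and 3.83, while the other pathway lists hold genes on both sides or near 0.

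Markers of immune cells, in which IRF genes are also expressed, were read in the same fit. Of all genes, 14.9% were called higher and 29.9% lower in WT, and 14.2% and 31.2% in S534A. Of 14 Kupffer cell markers (the resident liver macrophages), 12 fell and 1 rose in each genotype. The list's mean log2 level in WT lay between 9.23 and 9.70 untreated and between 8.14 and 8.49 after LPS. In S534A it lay between 8.97 and 9.42 and between 7.91 and 8.20. All 12 neutrophil markers rose in both genotypes, and their mean level lay between 5.92 and 6.12 untreated and 7.73 and 8.36 after LPS in WT. In S534A these limits were 5.95 and 6.06, and 7.80 and 8.16. Of 4 tested monocyte markers, 3 rose in WT and 4 in S534A, where 2 rose with median centring and without untreated S534A array 4. The list held 8 genes, of which 3 were below the filter and 1 was not named on the array. Ly6c2 and Ccr2 were among those not tested. Irf8 thus rose while Kupffer cell markers fell and neutrophil markers rose, and the part of these cells in the Irf8, Irf5 and Irf7 values was not tested.

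Of 12 dendritic cell markers 1 rose and 2 fell in each genotype, beside 14.9% and 29.9% of all genes in WT and 14.2% and 31.2% in S534A. The gene that rose was Bst2, which is also in the antiviral list. The genes that fell were Cd209a and Flt3 in WT and Clec9a and Zbtb46 in S534A, the last pair named after their values were seen. Over the other settings 1 to 2 rose, and 1 to 4 fell in WT and 1 to 3 in S534A. Of 7 B and plasma cell markers, whose cells are a main source of Irf4, 0 rose and 3 fell in each genotype, and 5 fell in WT with median centring or a second quantile normalization. Between genotypes no marker passed the threshold, and of all genes 0% passed it after LPS and 0.0126% untreated. Kupffer cell markers had a lower mean in S534A than in WT for 12 of 14 genes untreated (median -0.15). After LPS this held for 14 of 14 (median -0.22). Of all genes, 49.2% had a higher mean in S534A untreated and 48.8% after LPS. These markers share arrays, so their common sign is not 14 separate observations. The part of Kupffer cells in the lower Irf5 means of S534A was not tested.

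**Figure D5:**
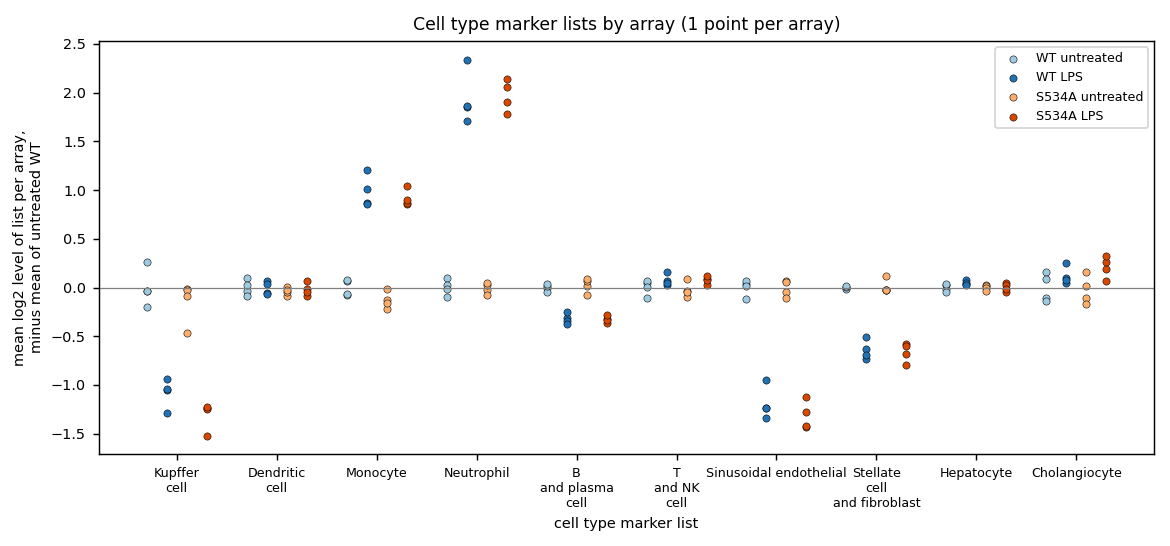
Mean log2 level of each cell type marker list on each array, minus its mean in untreated WT (vertical axis), with 1 point per array coloured by group. Kupffer cell lists lie lower and neutrophil lists higher on all LPS arrays, with no array of either genotype crossing between states.

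Genes with the pattern most like each IRF gene were taken as the 3 of highest Pearson correlation of log2 values over the 16 arrays. These points share the LPS contrast, so high values are common. For Irf7 they were Eppk1 and Adar (r = 0.995) and Ifit1 (0.994). For Irf9 they were Trim12c, Serpina10 and Tapbpl (0.994 each). For Irf8 they were Cd40 (0.993), Il1r2 and Tap1 (0.991 each), and for Irf2 Il17ra and Steap4 (0.993 each) and Rnf31 (0.992). Irf1 was closest to Apex1 and S100a11 (0.977 each) and Rhoc (0.976). Irf3 was closest to Prr14 (0.981), Tomm40l (0.975) and Slc35f6 (0.973), which fell after LPS as Irf3 did, by 0.59, 1.07 and 0.57 in WT. The values were lower for Irf4, whose closest gene was Acsm2 (0.852), and for Irf5, whose closest was Adap2 (0.724).

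Once the group means were removed, the closest genes were mostly others. Irf2 stayed near Il17ra (r = 0.896 over 16 deviations, after Plec at 0.899) and Irf4 near Acsm2 (0.885). Irf1 was then closest to Gpm6b (0.872), Irf3 to Ube2z (0.938), Irf5 to Stxbp6 (0.795), Irf7 to Ptgr1 (0.888), Irf8 to Esr1 (0.902) and Irf9 to Rab27a (0.845). Among the IRF genes themselves, deviations from group means were most alike for Irf4 and Irf5 (0.603) and for Irf3 and Irf8 (0.560), and most opposed for Irf4 and Irf8 (-0.633). Irf1 and Irf2, which act on shared elements, had a correlation of 0.01. These are descriptions of 16 arrays and carry no test. The closest genes and the most alike or opposed pairs are extremes picked from many values. Irf4, in pairs at both ends, read low on these arrays.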

How the data were processed

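Whole-liver RNA was measured on 16 Affymetrix arrays. The authors deposited log2 values, made with RMA per the submitters' processing notes. The RMA version and probe set level were not given in the sources used here. Signal over background was not assessed, for lack of scanner data in this work, and precision is limited by the number of arrays. Of 35556 probe sets 21789 had 1 gene symbol. Probe sets above the 30th percentile of their array on at least 4 of 16 arrays were kept, and the probe set of highest mean stood for each of 15908 genes. No arrays held identical values.

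Changes were fitted with limma 3.58.1 in R 4.3.3, with 4 group means, 12 residual and 4.28 prior degrees of freedom. Intervals are 95%. The fit was tested on simulated data. Promoters were searched and figures drawn in Python 3.11.15 (matplotlib 3.10.9).

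The members and the 16 gene lists were chosen with earlier results of these data known. Named genes were the 8 members, Rela, up to 4 genes of lowest p in the WT LPS effect from each pathway list, up to 3 from each cell type list, and the 3 most correlated genes per member, with predicted-gene, clone and small RNA symbols left out. Alternatives covered the filter, the probe set rule, scaling, array weights, eBayes settings, the replicate number as a block, the arrays fitted, thresholds and leaving out each array. The clock score, removal of the 3 arrays apart in it and the lists' other settings were added after the data were seen.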

Additional observations from a re-analysis of the deposited data

How the results depend on the processing

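Each comparison of 2 groups was refitted under 30 alternatives. In all of them 5 IRF genes were higher after LPS in each genotype and 0 differed between genotypes. The number lower in WT, 1, was 2 with median centring and with a second quantile normalization, and with a 1.5-fold minimum it was 0 in both genotypes. Over all genes the median change was -0.16 in WT and -0.13 in S534A with median centring, against -0.05 and -0.03. That setting brought the higher share of WT calls from 33.3% to 22.1%. Array quality weights called 370 genes between untreated genotypes, against 2, and 3 in the interaction. Leaving out each array gave 0 to 7 and 0 to 2. A filter at the array median left no value for Irf4. With a 1.5-fold minimum 3158 genes were called in WT and 3286 in S534A.

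Signs that turned belonged to values near 0 or to the choice of Irf1 probe set. After LPS, Irf1 differed between genotypes by -0.052 with the mean of probe sets and by -0.16 with its other probe set, whose interaction was -0.067. With median centring the LPS change was -0.079 for Irf5 in WT and -0.072 for Irf4 in S534A, and the genotype difference after LPS -0.0062 for Irf2, -0.0015 for Irf8 and -0.0094 for Rela. With a second quantile normalization the S534A change was -0.062 for Irf4 and 0.046 for Irf5, and the interaction of Irf5 0.0055. With array quality weights Irf5 changed by -0.0001 in WT and 0.10 in S534A, with an interaction of 0.10. They gave Irf2 -0.026, Irf7 0.012 and Rela -0.027 after LPS, and Irf2 0.10 untreated and -0.13 in the interaction.

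Leaving out each array in turn, the LPS change ran from -0.034 to 0.076 for Irf5 in WT, and in S534A from -0.016 to 0.073 for Irf4 and -0.11 to 0.076 for Irf5. The genotype difference after LPS ran from -0.019 to 0.032 for Irf2, -0.078 to 0.026 for Irf7, -0.048 to 0.082 for Irf8, -0.064 to 0.018 for Irf9 and -0.024 to 0.029 for Rela. Untreated, it ran from -0.18 to 0.043 for Irf2 and -0.069 to 0.020 for Irf8. The interaction ran from -0.037 to 0.19 for Irf2, -0.13 to 0.052 for Irf5 and -0.016 to 0.11 for Irf8. The cause of these turns was not tested.

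On average, arrays of the same replicate number deviated together about as little as other arrays. Over 24 pairs of the same number the correlation averaged 0.004, from -0.492 to 0.588. Over 72 pairs of different numbers it averaged 0.002, from -0.589 to 0.57. It exceeded 0.1 in 9 of the 24 pairs and 21 of the 72, and 6 of 16 arrays correlated best with their own number. With the number as a block, 5 IRF genes rose and 1 fell in each genotype, and 6988 genes were called in WT, 7092 in S534A and 0 between untreated genotypes. The block left 1 gene, in place of 2, that fell in WT among interferon ligands, receptors, JAK kinases and STATs.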

Other observations

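The other cell type lists are read beside the shares of all genes called after LPS, 14.9% higher and 29.9% lower in WT and 14.2% and 31.2% in S534A. Of 10 sinusoidal endothelial markers 8 fell and 2 rose in each genotype (1 to 2 rose over the other settings), with a median log2 change of -1.28 in WT. Kdr, a receptor for vascular endothelial growth factor, changed by -3.24 in WT and -3.37 in S534A, Clec4g by -2.24 and -2.13, and Tek by -2.13 and -2.35. The genes that rose were Lyve1, by 1.35 in WT and 1.17 in S534A, and Cdh5, by 0.21 and 0.25. Both were named after their values were seen. Of 9 stellate cell and fibroblast markers 6 fell and 0 rose in each genotype. Among them Hgf, a growth factor for hepatocytes, changed by -1.44 in WT, Lrat, which stores retinol, by -1.55 in WT and -2.13 in S534A, and Pdgfrb by -1.01 and -0.93.

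Of 6 tested T and NK cell markers, Gzmb, a protease of cytotoxic lymphocytes, rose by 1.17 in WT and 1.13 in S534A, and Cd4 fell by 0.32 in WT. Of 9 hepatocyte markers 2, Tat and Hnf4a, rose in WT by 0.36 and 0.28, and 0 passed in S534A. In WT 1 rose with median centring or without the 3 arrays apart in clock genes, and in S534A 1 rose without untreated WT array 4 or untreated S534A array 2. Of 4 cholangiocyte markers Sox9 rose by 0.72 in WT and 1.25 in S534A, and Krt19 fell by 0.24 and 0.21. None of the 4 was called higher in WT without untreated WT array 4 or WT LPS array 3. With median centring 3 hepatocyte markers fell in each genotype. Over the other settings 0 to 3 T and NK cell markers fell in each genotype, and 0 to 1 cholangiocyte markers in WT and 0 to 2 in S534A.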
